A study of Mus musculus with 24 samples.

Results

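The red cell membrane genes described here are Slc4a1, Rhag, Kel, Ank1, Epb42, Sptb, Epb41 and Add2, which are 8 of the 21911 protein-coding genes of the mouse annotation. They were chosen by name for what their proteins do in the red cell membrane, with earlier results of these data known. For each gene, the peaks of all 24 libraries were collected in a window that runs from 20 kb before the gene to 20 kb after it (GENCODE vM21, mm10). The 8 windows held 171 of the 207525 elements of the series, an element being a stretch of DNA with overlapping peaks in both libraries of at least 1 cell type.

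The study mapped accessible chromatin across mouse blood formation with ATAC-seq, an assay whose transposase enters open DNA and leaves a peak where many of its cuts gather. Each of 12 cell types had 2 libraries. Adult C57BL6 bone marrow gave LSK cells (Lin-, Sca1+, cKit+, the fraction with stem and multipotent progenitor cells), common myeloid progenitors (CMP), megakaryocyte erythroid progenitors (MEP), erythroid colony-forming cells (CFUE), erythroblasts (ERY), megakaryocyte colony-forming cells (CFUMK), megakaryocytes the titles call immature (iMK) and granulocyte macrophage progenitors (GMP), while monocytes (MON) and neutrophils (NEU) came from peripheral blood of the same strain. A pair of cell lines completed the set. G1E is an immortal erythroid progenitor line that lacks GATA1. G1E-ER4+E2 is 1 clone of G1E in which GATA1 function was restored with a GATA1 fusion to the estrogen receptor that needs estradiol (E2), so its parent's GATA1 deficiency is shared by both lines. By the study's methods, replicates were other groups of mice or separately sorted aliquots, so p-values here measure only the spread between such libraries.

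The red cell membrane is a lipid bilayer tied to a mesh of spectrin, and the tie lets the cell bend in capillaries without breaking. Integral proteins carry ions and gases and anchor the mesh through an ankyrin junction, where Ank1 joins Slc4a1 to spectrin, and an actin junction, where Epb41 and the adducins join spectrin to short actin filaments. Inherited loss of Slc4a1, Ank1, Sptb or Epb42 in people gives spherical red cells, and loss of Epb41 gives elliptical ones. GATA1, TAL1 and KLF1 are the best known activators of such genes in erythroid cells. GATA1 and TAL1 often bind together at a CTG followed at a short distance by GATAA, and KLF1 binds CACCC boxes.

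Peak lists were between 52720 and 230877 peaks long, and the cell lines had the shortest, between 52720 and 70306. Peak numbers are therefore given as found and, for tests, per 100000 peaks of the library. Labels were checked by promoter calls of marker genes. Of 8 erythroid markers, 8 were called in every CFUE, ERY and G1E-ER4+E2 library, 7 in each MEP and CFUMK library, 6 in each G1E, CMP, iMK and GMP library, 6 and 4 in LSK, and between 1 and 3 in MON and NEU. By this list G1E was thus not set apart from GMP or iMK. The iMK libraries called 6 of 6 monocyte and 6 of 7 granulocyte markers each, but 2 and 3 of 6 megakaryocyte markers, and both NEU libraries called 6 of 6 B cell markers. Of their own granulocyte markers the NEU libraries called 4 and 5 of 7. The CFUMK libraries called 7 of 7 granulocyte and 5 of 6 monocyte markers, beside 4 and 5 of 6 megakaryocyte markers. The CMP libraries called 6 and 5 of 7 granulocyte and 5 of 6 monocyte markers, and the LSK libraries 6 and 3, and 5 and 1. The iMK, NEU and CFUMK libraries, and others, thus called promoters of other cell types, whose part in the results was not tested. Some results that rest on NEU are given with and without it. The motif shares, the count of genes with a composite, the opposite promoter class and the lists of other genes are given with it only. Library numbers in the titles run together for CMP, MEP, CFUE, ERY, CFUMK, iMK and GMP, and apart from these for MON and NEU. Cell type, tissue and library series therefore cannot be told apart between CFUE or ERY and MON or NEU. Those of LSK lie apart from these and from each other, the second next to MON, and the LSK lists held 200857 and 135309 peaks. LSK and CMP therefore differ in library series as well as in cell type. Among the 7 marrow types whose numbers run together, the numbers form 2 runs, each with 1 library of every type. The labels do not say what a run is.

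Sequence is shown first for elements called in both CFUE and ERY, and in neither MON nor NEU, that held a composite motif on either strand, CTG followed after 8 or 9 bases of any kind by GATAA. There were 15 such elements in the windows of the 8 genes, and each gene had at least 1. The strongest composite element of a gene, or one called in few other cell types, is printed with 30 bases on each side, read on the strand where the composite reads forward, from the GRCm38.p6 genome. Capitals mark the composite.
Slc4a1 element 5, chr11:102363716-102363792, forward strand: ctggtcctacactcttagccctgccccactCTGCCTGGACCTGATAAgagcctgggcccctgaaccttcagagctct
Ank1 element 18, chr8:23054174-23054250, reverse strand: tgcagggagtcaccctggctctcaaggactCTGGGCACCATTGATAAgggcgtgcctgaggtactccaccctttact
Sptb element 14, chr12:76673873-76673949, reverse strand: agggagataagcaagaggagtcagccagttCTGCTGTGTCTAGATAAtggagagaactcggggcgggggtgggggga
Epb41 element 33, chr4:132060612-132060687, reverse strand: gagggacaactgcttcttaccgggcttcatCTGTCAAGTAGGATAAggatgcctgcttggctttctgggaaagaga
Epb42 element 8, chr2:121037057-121037133, forward strand: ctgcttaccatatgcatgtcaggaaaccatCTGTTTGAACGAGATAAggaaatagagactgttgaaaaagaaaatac
Epb42 element 12, chr2:121056077-121056152, forward strand: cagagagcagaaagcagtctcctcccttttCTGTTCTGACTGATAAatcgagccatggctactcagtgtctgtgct
Add2 element 12, chr6:86077955-86078031, reverse strand: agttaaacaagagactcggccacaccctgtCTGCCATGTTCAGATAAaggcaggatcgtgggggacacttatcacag
Rhag element 4, chr17:40806765-40806841, reverse strand: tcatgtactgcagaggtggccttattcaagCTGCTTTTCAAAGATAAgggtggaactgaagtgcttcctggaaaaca
The lines were chosen for the composite, so its presence in each is no result, and the bases between CTG and GATAA differ from line to line. Slc4a1 element 5 lies at an internal start of Slc4a1, Epb42 element 8 at the Epb42 start and Add2 element 12 at the third start of Add2. Sptb element 14, Ank1 element 18 and Epb41 element 33 are intronic. Rhag element 4 lies 4393 bases upstream of the Rhag start, near a start of Crisp2, a neighbouring gene on the other strand.

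The next lines show, for Kel, Rhag and Sptb, the 150 bases just before the RefSeq start (RefSeq promoters, GRCm38.p6), chosen because Kel and Rhag hold the composite there and Sptb, whose promoter was called in every library, does not. They read in the direction of transcription. RefSeq promoters were matched for 6 of the 8 genes, in 8 windows of 300 bases. Capitals mark the composite and GATAA on either strand.
Kel promoter, chr6:41704326-41704475, reverse strand: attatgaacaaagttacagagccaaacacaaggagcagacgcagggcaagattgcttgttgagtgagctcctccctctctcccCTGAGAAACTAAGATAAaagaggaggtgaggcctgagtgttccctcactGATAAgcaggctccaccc
Rhag promoter, chr17:40810999-40811148, forward strand: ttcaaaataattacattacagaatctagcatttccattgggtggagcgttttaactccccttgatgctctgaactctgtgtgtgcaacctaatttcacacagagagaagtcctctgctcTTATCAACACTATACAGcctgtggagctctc
Sptb promoter, chr12:76710548-76710697, reverse strand: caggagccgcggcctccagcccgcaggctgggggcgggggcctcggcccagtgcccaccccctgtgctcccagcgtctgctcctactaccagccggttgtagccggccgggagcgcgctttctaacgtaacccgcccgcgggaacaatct
In the Kel line the composite begins 67 bases before the start and a further GATAA 18 bases before it. In the Rhag line the composite reads on the other strand, so its GATAA appears as TTATC. The Sptb line holds neither motif, and its GC content was 72.0%, against 42.0% for Rhag. Over the whole windows, 3 members held the composite (Epb42, Rhag and Kel), while 1.46% of 32851 RefSeq promoters did. A match describes letters only, and no factor was measured here.

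Among the integral proteins, Slc4a1 (band 3) is the anion exchanger that carries bicarbonate and the main anchor of the mesh. It lies at chr11:102348824-102366203 on the reverse strand. The CFUE libraries held 15 and 11 Slc4a1 peaks and the ERY libraries 15 and 14, against 2 and 1 for MON, and 0 and 2 for NEU. Other marrow types were low, with 7 and 4 in LSK, 4 and 3 in CMP, 3 and 4 in MEP, 3 and 6 in CFUMK, 4 and 7 in iMK and 4 and 1 in GMP. Every CFUE and ERY library lay above every other primary library. The share of all genes with such a lack of overlap was not counted, here or for the genes below. The G1E-ER4+E2 libraries had 8 and 11 peaks, against 4 and 7 in G1E.

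**Figure D1:**
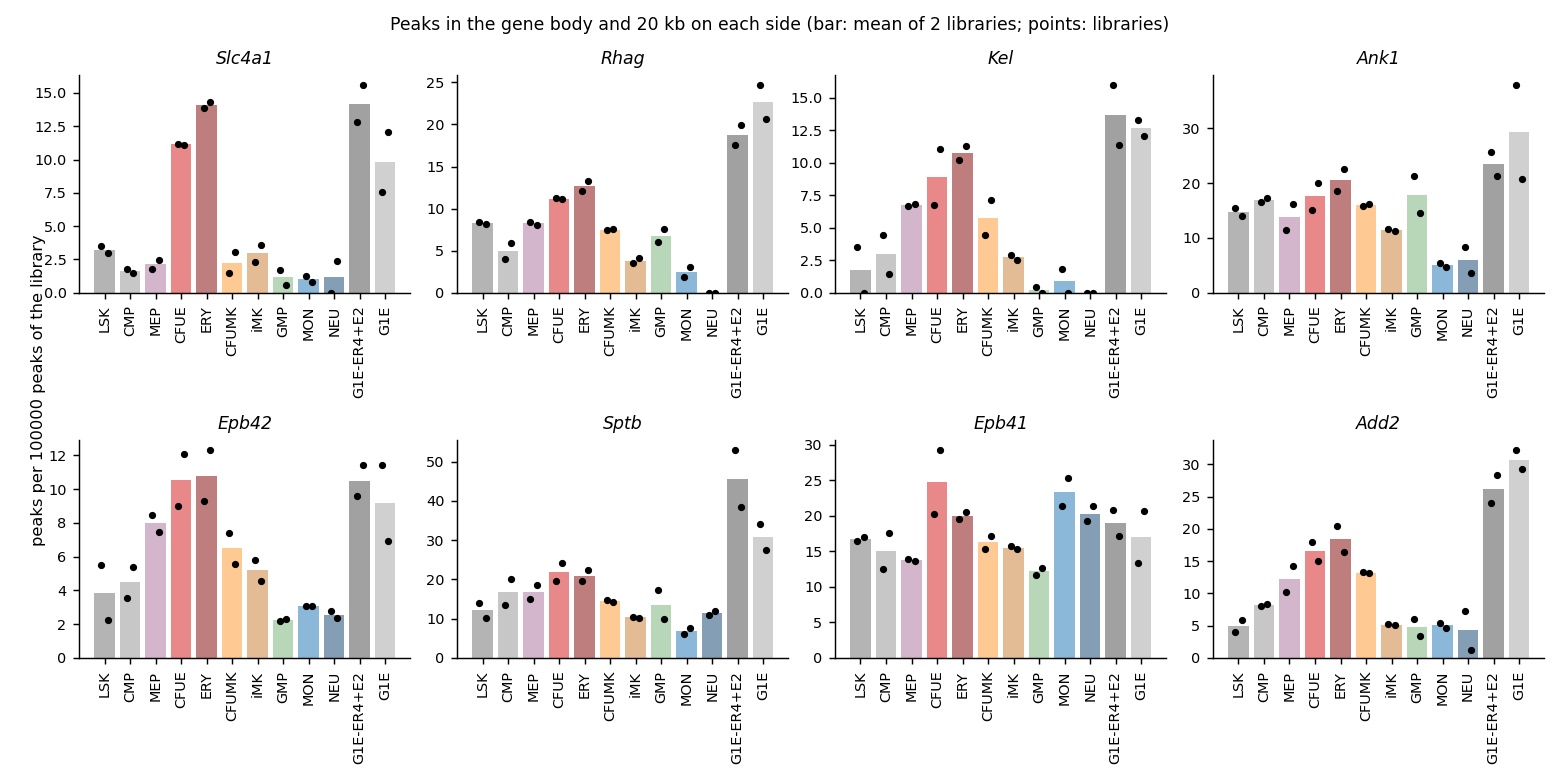
Peaks in the window of each gene per 100000 peaks of the library, for 12 cell types on the horizontal axis. Bars are means of 2 libraries and points are libraries. Slc4a1 reached a mean of 14.1 in ERY and 11.2 in CFUE, against 0.993 in MON and 1.19 in NEU, while Epb41 had 24.7 in CFUE, against 23.4 in MON and 20.3 in NEU. Values of the cell lines rest on short lists.

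Most Slc4a1 elements were called in CFUE or ERY and not in MEP. Of its 11 elements, 2 were called in MEP, 8 in CFUE and 9 in ERY, and 7 of the 11 (63.6%) were called in CFUE or ERY and in no other primary type, where 4.66% of all elements were. The second start cluster, with 2 annotated starts (102365247 and 102365280), had no peak in MEP. Its peak stood at percentile 97.4 and 96.7 of the CFUE lists and 97.7 and 97.2 of the ERY lists. A percentile here is the peak's rank by score as a percent of the library's peaks, with tied scores given their mean rank. The same start had a peak at percentile 1.8 and 1.7 in iMK and at 72.5 and 65.3 in G1E-ER4+E2, against 10.8 in 1 G1E library. The internal start of element 5, whose composite is printed above, was called in MEP as well. It was at 93.9 and 90.6 in MEP, and at 99.6 and 99.6 in CFUE and 99.5 and 99.5 in ERY, against 85.1 and 83.3 in CFUMK. Slc4a1 element 9, which is 9349 bases upstream of the outermost start, was at 99.9 in both CFUE libraries and rounded to the top of the list in both ERY libraries. In MEP it was at 95.2 and 91.4, and in LSK at 57.7 and 35.7. The long noncoding RNA gene Bloodlinc starts within the same window, so the elements of the window cannot be assigned to Slc4a1 alone. The same limit applies to the windows of the other members, where other genes also start. Examples are Nkx6-3 for Ank1, Plekhg3 for Sptb, Tmem200b for Epb41, Figla for Add2 and Trpv5 for Kel.

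Rhag encodes the Rh-associated glycoprotein, a channel for ammonia and gases that brings the Rh proteins to the surface. It lies at chr17:40811126-40840754 on the forward strand. Rhag had 15 and 11 peaks in CFUE and 13 and 13 in ERY, against 3 and 4 for MON, and none for NEU. The count was 14 and 13 in MEP, 17 and 11 in LSK, 9 and 12 in CMP, 15 and 15 in CFUMK, 6 and 8 in iMK and 14 and 13 in GMP. The window was thus already rich in peaks in LSK and GMP, and its promoter showed another pattern. A peak at the start was called in both libraries of CMP, MEP, CFUE, ERY, CFUMK, G1E-ER4+E2 and G1E, in 1 library each of LSK and iMK, and in no GMP, MON or NEU library. Its percentile was 95.4 and 94.5 in CFUE, 94.7 and 94.9 in ERY and 96.6 and 96.4 in MEP. Rhag element 4, the upstream element printed above, was at 95.6 and 85.6 in LSK, 99.4 and 99.4 in MEP, 98.0 and 98.1 in CFUE and 97.4 and 96.9 in ERY. Of 16 Rhag elements, 3 were called in CFUE or ERY and no other primary type.

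Kel encodes the Kell glycoprotein, a surface endopeptidase and blood group antigen. It lies at chr6:41686330-41704339 on the reverse strand. Kel had 9 and 11 peaks in CFUE, 11 and 11 in ERY and 11 and 11 in MEP, against 1 and 0 for GMP, 3 and 0 for MON, and none for NEU. The remaining counts were 7 and 0 in LSK, 10 and 3 in CMP, 9 and 14 in CFUMK and 5 and 5 in iMK, and the replicates of LSK and of CMP lay far apart. MEP, CFUE and ERY did not overlap with GMP, MON or NEU. The promoter of Kel was at percentile 98.3 and 99.1 in MEP, 97.1 and 96.8 in CFUE and 96.7 and 96.1 in ERY. It was at 87.2 and 83.2 in CMP, 96.0 and 95.9 in CFUMK, 41.2 and 39.4 in iMK, 70.7 in 1 LSK library and 1.6 in 1 GMP library. In the lines it was at 88.0 and 91.2 in G1E-ER4+E2, against 97.8 and 96.3 in G1E. Of the 11 Kel elements, 7 were called in each of MEP, CFUE and ERY, and none in LSK, GMP, MON or NEU. Kel element 10, 2348 bases upstream, was called in both libraries of MEP, CFUE and ERY alone, at 60.4 and 77.9 in MEP, 84.5 and 82.7 in CFUE and 80.6 and 76.3 in ERY.

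At the ankyrin junction, Ank1 encodes the erythroid ankyrin. It spans chr8:22974844-23150497 on the forward strand. Ank1 had 20 and 20 peaks in CFUE and 20 and 22 in ERY, against 9 and 6 for MON, and 9 and 3 for NEU. Most other marrow types had similar or higher numbers, with 31 and 19 in LSK, 37 and 35 in CMP, 19 and 26 in MEP, 32 and 32 in CFUMK, 20 and 22 in iMK and 49 and 25 in GMP. Peak number therefore separated MON and NEU from the other primary types and did not separate erythroid from progenitor cells.

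At the starts of Ank1 these cells differed. The first start cluster, at the outermost end (22974844 to 22975136), had a peak at percentile 20.7 and 54.2 in LSK, 35.2 and 36.5 in CMP, 29.9 and 8.4 in MEP and 56.6 and 29.6 in GMP. In CFUE it had none, and in ERY only 1 library had one, at 13.8. The second cluster (23035099 to 23035231) was at 97.1 and 97.0 in CFUE and 96.5 and 96.7 in ERY. Before these stages it was at 66.3 and 50.3 in LSK, 88.1 and 74.7 in CMP and 95.9 and 95.5 in MEP, and outside the branch it was at 92.2 and 91.4 in CFUMK, 33.3 and 38.6 in iMK and 57.6 at most in GMP. No MON or NEU library had a peak at any Ank1 start. In the lines the second cluster was at 82.4 and 86.7 in G1E-ER4+E2, against 66.8 and 69.8 in G1E. Among intronic elements, Ank1 element 12 had peaks in MEP, CFUE, ERY and CFUMK alone, at 88.1 and 87.1 in CFUE, against 55.1 and 61.0 in CFUMK.

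Epb42 encodes protein 4.2, a relative of the transglutaminases without enzyme activity that steadies the tie between Slc4a1 and ankyrin. It lies at chr2:121017891-121037072 on the reverse strand. Epb42 had 12 and 12 peaks in CFUE, 10 and 12 in ERY and 14 and 12 in MEP, against 5 and 4 for GMP, 5 and 4 for MON, and 3 and 2 for NEU. The count was 11 and 3 in LSK, 8 and 11 in CMP, 15 and 11 in CFUMK and 10 and 9 in iMK. MEP, CFUE and ERY lay above all GMP, MON and NEU libraries. The peak at the Epb42 start (element 8) was at percentile 99.7 and 99.5 in CFUE, 99.6 and 99.5 in ERY and 94.1 and 91.6 in MEP. It was at 83.6 and 87.7 in CFUMK, 52.1 and 37.8 in iMK and 57.7 and 67.9 in LSK, and absent from GMP, MON and NEU. The Epb42 window also holds the promoter of Ccndbp1, which was called in all 12 types, so the low counts of MON and NEU lie in part at that promoter. Epb42 element 12, 19021 bases upstream, was at 92.7 and 92.7 in CFUE, 93.3 and 91.9 in ERY and 90.1 and 81.5 in MEP, against 59.5 and 76.2 in CFUMK.

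**Figure D2:**
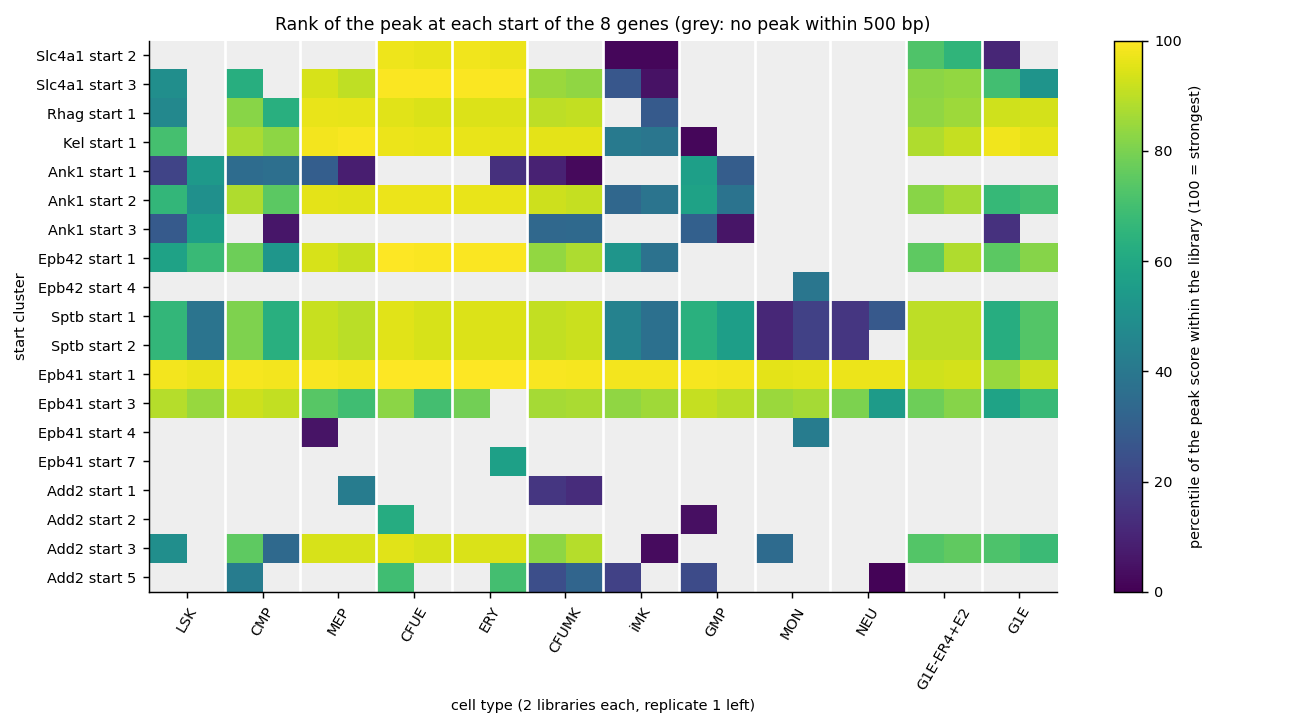
Percentile of the peak at each start cluster of the 8 genes (rows) in the 24 libraries (columns, 2 for each type), with 100 the strongest peak of the library and grey where no peak lay within 500 bp. The second starts of Slc4a1 and Ank1 and the first starts of Rhag, Kel and Epb42 were bright in CFUE and ERY and grey in MON and NEU, and the first start of Epb41 was bright in all 24 libraries.

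Of the mesh itself, Sptb encodes the beta chain of erythroid spectrin. It spans chr12:76580488-76710547 on the reverse strand. Sptb had 26 and 24 peaks in CFUE and 21 and 22 in ERY, against 10 and 10 for MON, and 12 and 10 for NEU. The count was 28 and 14 in LSK, 30 and 41 in CMP, 25 and 30 in MEP, 30 and 28 in CFUMK, 18 and 20 in iMK and 40 and 17 in GMP. Its promoter was called in all 24 libraries, and the cell types differed in its rank. It was at percentile 95.6 and 94.1 in CFUE and 94.7 and 94.6 in ERY, against 11.2 and 19.4 for MON, and 15.8 and 28.0 for NEU. Progenitors lay between, at 66.3 and 38.4 in LSK and 91.5 and 89.8 in MEP, CFUMK was at 91.0 and 91.9 and iMK at 44.5 and 37.0. In the lines it was at 90.2 and 90.0 in G1E-ER4+E2, against 62.3 and 73.3 in G1E. Sptb element 17, 2094 bases inside the gene, was called in MEP, CFUE, ERY and G1E-ER4+E2 and not in G1E.

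Epb41 encodes protein 4.1, which binds spectrin to actin and is made in many tissues through its several starts. It spans chr4:131923413-132075321 on the reverse strand. Epb41 had 27 and 29 peaks in CFUE and 21 and 20 in ERY, against 35 and 33 for MON, and 21 and 18 for NEU. The count was 33 and 23 in LSK, 28 and 36 in CMP, 23 and 22 in MEP, 31 and 34 in CFUMK, 27 and 30 in iMK and 27 and 22 in GMP, so no primary type stood apart. The first start was at percentile 99.9 or above in all CFUE and ERY libraries, and at 95.9 or above in every primary library. The third start was weaker in the branch, at 82.7 and 70.0 in CFUE and 78.8 in 1 ERY library with none in the other. It was at 91.4 and 89.2 in GMP and 85.1 and 86.4 in MON. Within the introns, Epb41 did carry elements of the branch. Element 33, printed above, was called in MEP, CFUE and ERY and in no library of another type, at 79.8 and 84.4 in MEP, 89.2 and 88.0 in CFUE and 91.0 and 91.4 in ERY. Element 32, which lies beside it, was at 96.3 and 93.9 in CFUE and 97.7 and 97.3 in ERY, against 78.3 and 86.4 in CFUMK. Element 19 stood higher at each stage, at 53.9 and 44.6 in MEP, 86.9 and 79.7 in CFUE and 90.7 and 90.0 in ERY, and was at 55.7 and 64.7 in CFUMK. Of 42 Epb41 elements, 7 were called in CFUE and ERY and neither MON nor NEU, and 9 in MON or NEU and neither CFUE nor ERY.

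Add2 encodes beta adducin, which caps actin filaments and recruits spectrin to them. It spans chr6:86028681-86124409 on the forward strand. Add2 had 24 and 15 peaks in CFUE and 22 and 16 in ERY, against 9 and 6 for MON, and 8 and 1 for NEU. The count was 8 and 8 in LSK, 18 and 17 in CMP, 17 and 23 in MEP, 27 and 26 in CFUMK, 9 and 10 in iMK and 14 and 6 in GMP. The CFUMK libraries had the most peaks as found, from lists of 202625 and 197175 peaks, and per 100000 peaks CFUE had 18.0 and 15.1 and ERY 20.4 and 16.4, against 13.3 and 13.2 in CFUMK. Of 26 Add2 elements, 8 were called in CFUE and 7 in ERY, against 18 in CFUMK, a type where 59.5% of all elements were called. The start with the highest percentiles was the third (86078057 to 86078084), at percentile 95.7 and 94.1 in CFUE, 94.3 and 94.2 in ERY and 93.9 and 94.0 in MEP. It was at 83.0 and 89.0 in CFUMK and 35.0 in 1 MON library. The outermost start was called in both libraries of CFUMK alone, at 15.7 and 12.6. Add2 element 13, just downstream of the third start, was at 86.9 and 83.0 in CFUE and 87.6 and 85.1 in ERY, against 41.7 and 44.8 in CFUMK.

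**Figure D3:**
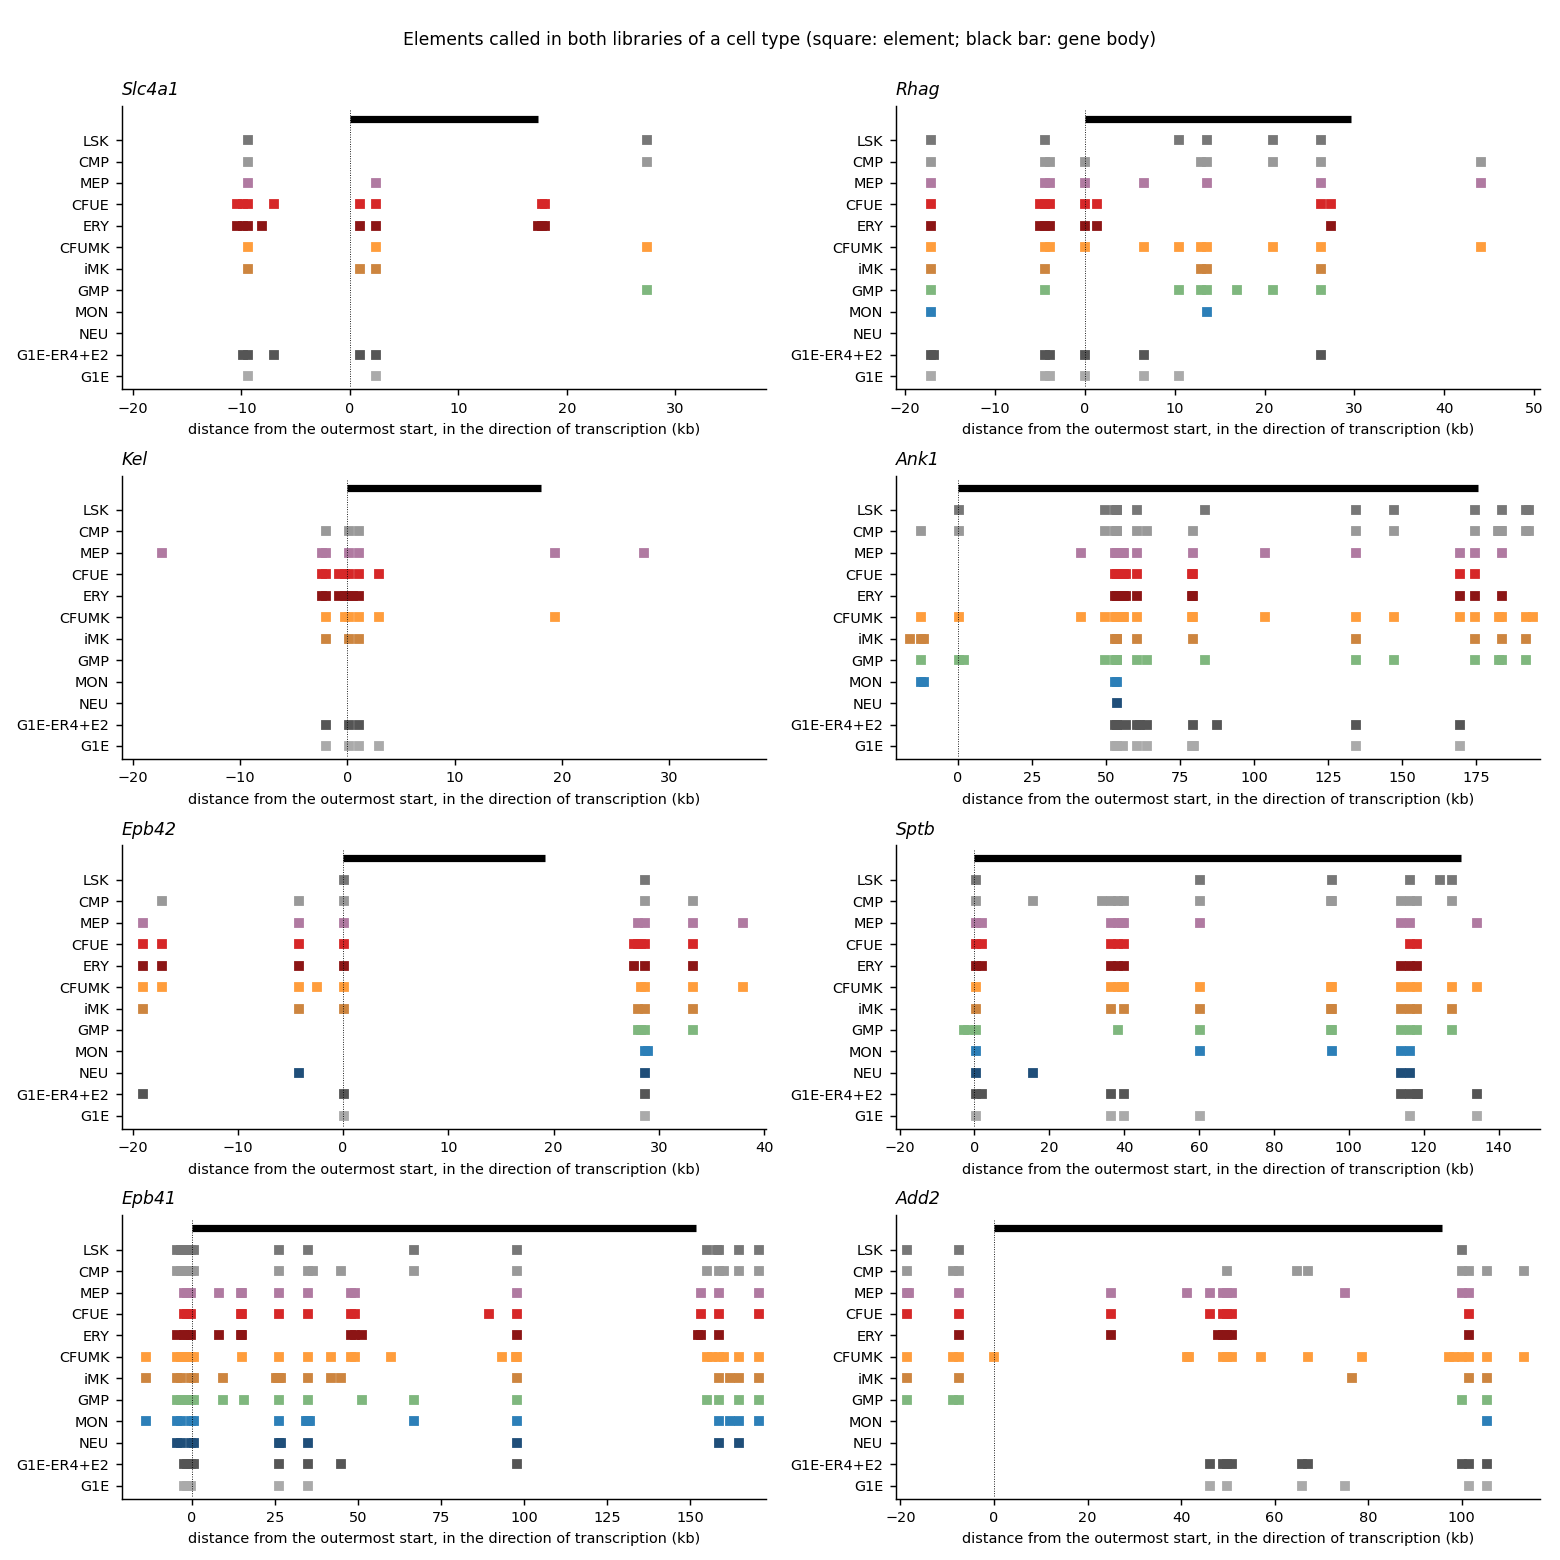
Elements called in both libraries of each of 12 cell types (rows) against the distance from the outermost start in kb, in the direction of transcription. Squares are elements and black bars are gene bodies. Slc4a1 had 8 elements in CFUE and 9 in ERY, against none in MON or NEU, and Epb41 had 14 in CFUE and 14 in ERY, against 15 in MON and 10 in NEU.

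The broadest comparison set maturing erythroid cells (CFUE and ERY) against mature innate cells (MON and NEU), with limma on log2 peaks per 100000 peaks, a prior of 1 peak, and Benjamini-Hochberg adjustment over 17018 genes. Of the 8 members 7 were higher and 0 lower at an adjusted p under 0.05, where 25.9% of all genes tested were higher and 14.3% lower. The median log2 difference was 1.77 for the members and 0.19 for all genes. The difference was 2.95 for Slc4a1 (standard error 0.30, adjusted p = 2.96e-10), 1.68 for Ank1 (0.19, 3.98e-09) and 1.20 for Sptb (0.18, 7.62e-07). It was 1.86 for Add2 (standard error 0.25, adjusted p = 5.45e-07) and 1.64 for Epb42 (0.23, 2.43e-07). Rhag (2.84, standard error 0.20, adjusted p = 8.24e-15) and Kel (3.14, 0.42, 3.86e-06) had no peak in either NEU library, so their fitted values depend on the prior. With priors of 0.5 and 2 peaks they were 3.37 and 2.30 for Rhag, and 3.87 and 2.43 for Kel. Epb41 did not pass (0.02, standard error 0.16, adjusted p = 0.93). Without the NEU group the same 7 genes passed, and the difference of Rhag was 2.07 and that of Kel 2.95. With each list held to its 52720 strongest peaks all 8 members were higher, where 41.6% of 11713 genes were, and Epb41 differed by 0.64 (adjusted p = 0.000403). Sptb missed the threshold when the flanks were 50 kb (0.40, adjusted p = 0.0512).

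Between the sister progenitors, MEP was set against GMP. Of the members 3 were higher in MEP and 0 lower, where 6.7% of all genes were higher and 3.72% lower. Kel (3.38, standard error 0.60, adjusted p = 0.000812), Epb42 (1.64, 0.32, 0.000647) and Add2 (1.31, 0.35, 0.0145) passed by limma. Add2 did not pass without MEP replicate 2 (1.08, adjusted p = 0.176) or without GMP replicate 2 (0.97, adjusted p = 0.166). GMP had 1 Kel peak in 1 library, so the size for Kel depends on the prior, at 4.02 with 0.5 peak and 2.70 with 2 peaks. Ank1 had a difference of -0.34 (adjusted p = 0.458). This comparison depended on how deep into the lists peaks were counted. When each list was held to its 52720 strongest peaks, 7 of 8 members were higher in MEP, where 23.4% of 11713 genes were, and Ank1 had a difference of 2.06 (adjusted p = 7.01e-06). Epb41 was the member that did not pass (0.45, adjusted p = 0.0913).

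Against its parent stage CMP, MEP had 0 of 8 members past the threshold by limma, where 1.99% of genes were higher and 1.98% lower. An unadjusted p under 0.05 was found for 3 members and for 3320 of the 17018 genes. The differences lay between -0.28 for Ank1 and 1.24 for Kel (adjusted p = 0.253). With 52720 peaks from each list, 6 of 8 were higher, where 15.8% of genes were, with Add2 at 2.81 (adjusted p = 3.02e-07) and Epb41 (0.05) and Sptb (0.41) below the threshold. Kel alone also passed when the fit held only the groups compared (1.24, adjusted p = 0.00626).

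**Figure D4:**
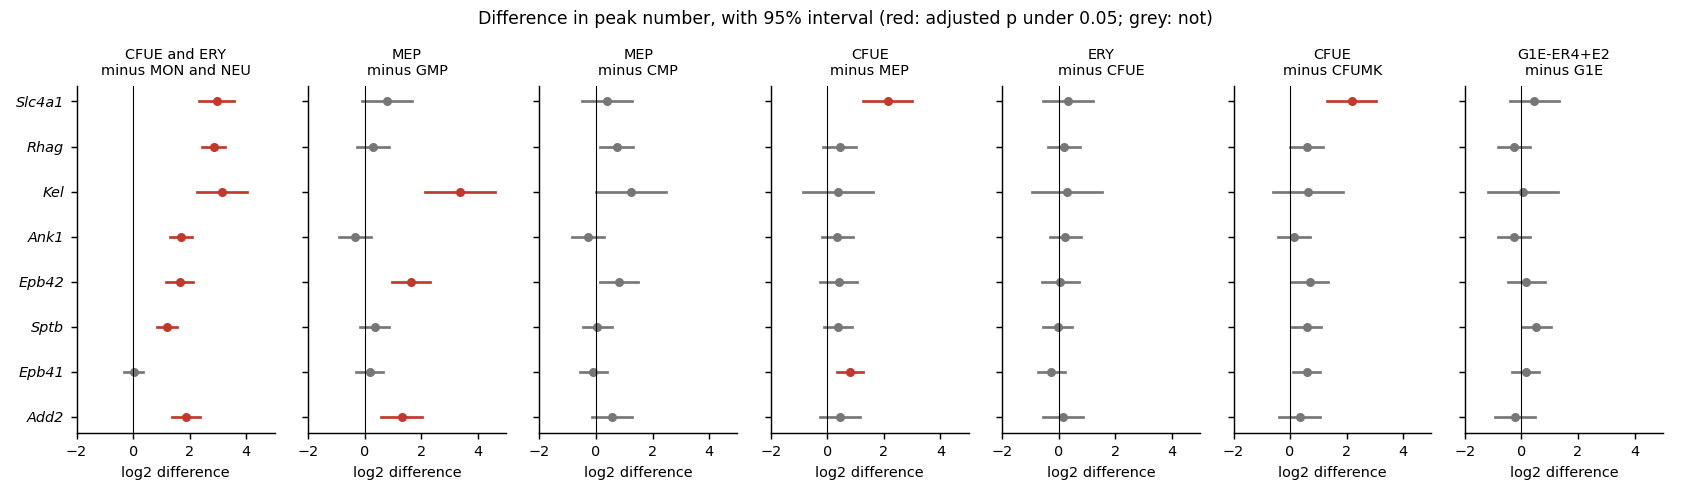
Log2 difference in peak number for each gene (rows) in 7 comparisons (panels), with lines for the 95% interval, red where the adjusted p was under 0.05 and grey where it was not. In the leftmost panel 7 of 8 genes lie to the right of 0, and Epb41 is at 0.02. Slc4a1 is the gene in red both against MEP and against CFUMK.

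At the step into the committed erythroid stage, CFUE against MEP, 2 members were higher and 0 lower, where 3.64% of genes were higher and 5.48% lower. Slc4a1 differed by 2.13 (standard error 0.43, adjusted p = 0.000768) and Epb41 by 0.80 (0.23, 0.0219). The call of Slc4a1 held without each of the 4 libraries in turn. That of Epb41 did not hold without MEP replicate 1 (0.81, adjusted p = 0.12), MEP replicate 2 (0.80, adjusted p = 0.0985) or CFUE replicate 2 (0.54, adjusted p = 0.349). With 52720 peaks from each list, 5 members were higher (19.1% of genes), namely Slc4a1, Sptb, Add2, Epb42 and Kel, and Epb41 was not (0.51, adjusted p = 0.0559). From CFUE to ERY no member passed in either direction by limma, where 0.693% of genes were higher in ERY and 1.05% lower. An unadjusted p under 0.05 was found for 0 members and for 1752 of the 17018 genes. Differences lay between -0.26 for Epb41 and 0.33 for Slc4a1, and the widest interval was that of Kel.

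Set against the other branch, CFUE had 1 of 8 members higher than CFUMK and 0 lower, where 18.7% of genes were higher and 9.92% lower. This was Slc4a1, at 2.18 (standard error 0.43, adjusted p = 0.000309). An unadjusted p under 0.05 was found for 5 members and for 7120 of the 17018 genes. The members as a group were thus not called more often than other genes here, and the values for Kel (0.63), Add2 (0.34) and Ank1 (0.14) did not pass. With 52720 peaks from each list all 8 were higher, where 31.2% of genes were, with Slc4a1 at 2.21, Kel at 2.16 and Add2 at 2.15. Add2 element 13 and Epb42 element 12, described above, were likewise called in both types and ranked higher in CFUE.

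Restoring GATA1 function in the line gave 0 of 8 members past the threshold in G1E-ER4+E2 against G1E by limma, where 6.8% of genes were higher and 4.03% lower. An unadjusted p under 0.05 was found for 1 member and for 3851 of the 17018 genes. Differences lay between -0.27 for Rhag and 0.52 for Sptb (adjusted p = 0.207), and the 52720 strongest peaks gave 0 calls as well. The G1E-ER4+E2 lists were also longer, at 62408 and 70306 peaks, against 52720 and 58011 in G1E, so peak numbers as found are given as a description. Sptb had 33 and 27 in G1E-ER4+E2, against 18 and 16 in G1E. Epb41 had 13 and 12 in G1E-ER4+E2, against 7 and 12 in G1E, Epb42 had 6 and 8, against 6 and 4, and Kel had 10 and 8, against 7 and 7. Ank1 had 16 and 15 in G1E-ER4+E2, against 20 and 12 in G1E, Add2 had 15 and 20, against 17 and 17, and Rhag had 11 and 14, against 13 and 12. As found, Slc4a1, Sptb and Kel did not overlap between the lines. Per 100000 peaks Kel did, at 16.0 and 11.4 in G1E-ER4+E2, against 13.3 and 12.1 in G1E. The share of all genes without overlap, between the lines or between the primary types above, was not counted. Of the 55 member elements of G1E-ER4+E2, 20 (36.4%) were not called in G1E, against 39.8% of all G1E-ER4+E2 elements, and of the 42 of G1E, 35 (83.3%) were kept, against 73.5% of all G1E elements. Elements in G1E-ER4+E2 and not G1E made up 11.7% of the member elements and 6.49% of all elements, while those in G1E and not G1E-ER4+E2 made up 4.09% and 3.54%. Slc4a1 had 3 of the 20, which included the element at its second start cluster, and Sptb and Add2 had 4 each.

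**Figure D5:**
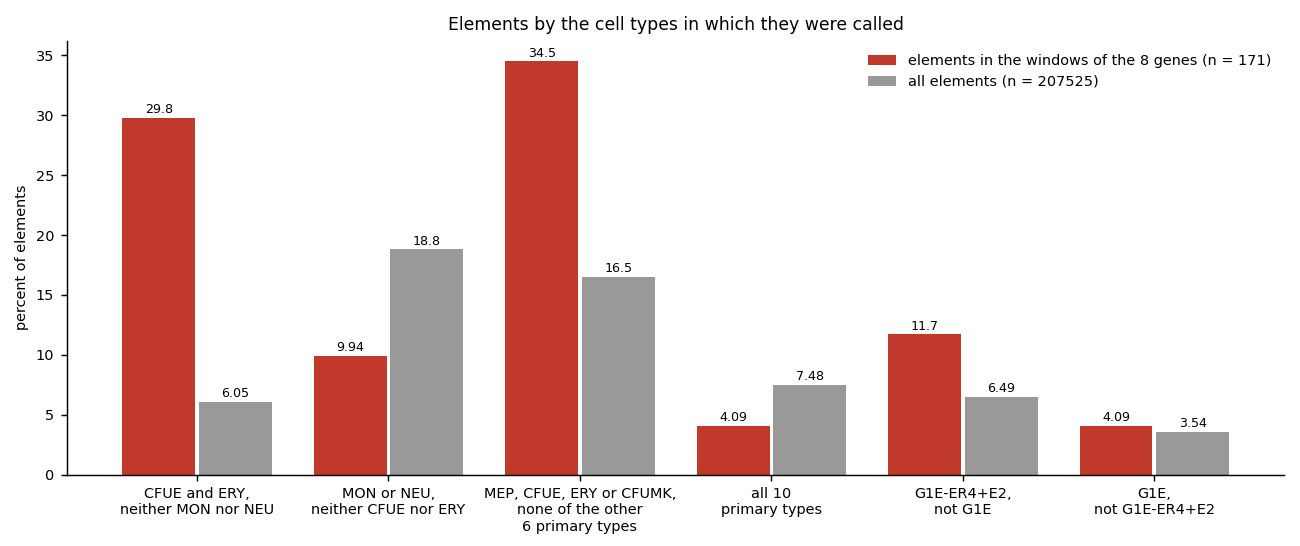
Percent of elements in 6 classes of cell types, for the 171 elements in the windows of the 8 genes (red) and for all 207525 elements (grey). The class of CFUE and ERY without MON and NEU holds 29.8% of member elements and 6.05% of all, and the class of MON or NEU without CFUE and ERY 9.94% and 18.8%.

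Taken by element, 51 of the 171 (29.8%) were called in both CFUE and ERY and in neither MON nor NEU, against 6.05% of all elements. The opposite class, MON or NEU without CFUE and ERY, held 17 (9.94%), against 18.8% of all. The first share ranged from 16.7% for Epb41 to 63.6% for Slc4a1. With the NEU calls left out the first class held 52 elements (30.4%), against 6.74% of all. The opposite class then held 15 (8.77%), against 14.5% of all. No element of Slc4a1 or Kel was in the opposite class, and 9 of its 17 were those of Epb41. Elements of all 10 primary types were 7 (4.09%), against 7.48%. Elements of CFUE or ERY and no other primary type were 17 (9.94%), against 4.66%, and those of CFUE or ERY in any company 82 (48.0%), against 23.9%. Elements confined to MEP, CFUE, ERY and CFUMK among primary types were 59 (34.5%), against 16.5%, and 14 of these were in Add2. By single type the share of member elements called was 42.1% in CFUE (19.7% of all), 41.5% in ERY (41536 of the 207525 in all), 42.7% in MEP (36.6%) and 60.8% in CFUMK (59.5%). It was 36.3% in iMK (47.1%), 35.7% in GMP (54.9%), 17.0% in MON (25.2%) and 9.94% in NEU (20.9%). By place, 86 elements were intronic, 12 exonic, 36 upstream and 37 downstream.

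Before the branch, 43 of 47 LSK elements (91.5%) were called in CMP, against 90.3% of all, and 43 of 77 CMP elements (55.8%) in MEP, against 49.7%. Member elements of MEP were called again in the erythroid stages more often than elements at large. Of 73 elements called in MEP, 53 (72.6%) were called in CFUE and 49 (67.1%) in ERY, against 41.7% and 42.1% of all MEP elements. Toward CFUMK, 61 (83.6%) were kept, against 84.4% of all. From CFUE to ERY 61 of 72 (84.7%) were kept, against 80.4%. On the other side, 14 of the 61 GMP elements (23.0%) were kept in NEU, against 32.9% of all, and 23 (37.7%) in MON, against 38.3%. From CFUMK to iMK 51 of 104 (49.0%) were kept, against 63.4%.

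Promoter calls were counted over all starts of a gene. A promoter call means a peak within 500 bp of an annotated start. All 8 members were called in both libraries of MEP, CFUE, ERY, CFUMK and both cell lines, where the share of all protein-coding genes was 58.1% in MEP, 48.3% in CFUE, 46.9% in ERY, 64.2% in CFUMK, 44.7% in G1E-ER4+E2 and 41.8% in G1E. The number was 4 in LSK (61.9% of all genes), 7 in CMP (64.2%), 7 in iMK (60.7%), 3 in GMP (65.2%), 2 in MON (52.5%) and 2 in NEU (51.4%). The 2 genes called in MON and NEU were Sptb and Epb41. Slc4a1 was called in both libraries of MEP, CFUMK and G1E only at its internal start, whose transcript is not protein-coding. With only the starts of the GENCODE basic set, 7 members were called in MEP (55.6% of all genes), CFUMK (62.0%) and G1E (40.5%). Slc4a1, Ank1, Rhag and Kel were called in all 4 CFUE and ERY libraries and in no MON or NEU library, a class with 172 of 21911 genes (0.785%). The opposite class held 0 members and 2.51% of all genes. With the NEU calls left out the same 4 members were in the class.

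Motifs in the 51 elements of CFUE and ERY were set beside the 12562 elements of that class in the genome. CACCC was found in 82.4% of the 51, against 62.7% of the class, and the composite in 29.4%, against 13.3%. Over whole elements GATAA was as common in both, at 54.9% against 54.4%. GGAAGT (an ETS site) was in 13.7% against 19.1%, and TGAGTCA (an NFE2 site) in 17.6% against 10.4%. GATAA is part of the composite. Median lengths were 285 and 290 bp. In the central 150 bp the composite was in 17.6% against 7.59% and CACCC in 58.8% against 41.4%. There GATAA was in 43.1% against 36.1%, GGAAGT in 1.96% (1 of the 51) against 8.82%, and TGAGTCA in 9.8% against 5.44%. An element of this class with a composite stood in the window of all 8 members and of 11.3% of the 17018 genes tested, or 12.9% of the 9783 genes at least as long as the shortest member. This count was made after the values were seen, and long windows hold more elements.

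Other proteins of the membrane were read from lists of genes that are not members. Of 9 other genes of the mesh, 6 were higher in CFUE and ERY than in MON and NEU and 0 lower, with a median of 0.56. Among these, Mpp1 (the p55 scaffold) differed by 1.20, Tmod1 (a cap of actin filaments) by 0.92, Dmtn (dematin) by 0.89, Tpm1 (a tropomyosin) by 0.56 and Add3 (gamma adducin) by 0.39. Add1, Actb and Tpm3 did not pass. Of 19 other integral proteins, 10 were higher and 2 lower, with a median of 0.55. Aqp1 (a water channel) differed by 2.75, Xk (the partner of Kell) by 2.57, Ackr1 (the Duffy receptor) by 1.66 and Bcam (the Lutheran antigen) by 1.12. Slc2a1, a glucose transporter, was lower at -1.72 (adjusted p = 1.64e-05), and Cd47 was the other gene that was lower. Of 20 paralogues of the members, 18 were tested, and 4 were higher and 2 lower, with a median of 0.23, near the 0.19 of all genes. Higher were Rhcg (1.42), Slc4a2 (0.98), Tgm2 (0.80) and Sptbn4 (0.46), and lower were Epb41l3 (-1.50) and Epb41l2 (-0.69), which are relatives of Epb41.

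Profiles over the 12 types were compared by Pearson's correlation of log2 peak number, as a description over types that share libraries and list length. The search left out genes with few peaks and genes whose window overlapped the member's. Within it, Kel and Epb42 were each other's closest gene, at 0.986, although they lie on different chromosomes. Among primary types both were highest in ERY, at 10.8 peaks per 100000 for Kel and 10.8 for Epb42, with CFUE next at 8.92 for Kel and 10.5 for Epb42, and for both genes the gap between these types lay within the spread of the CFUE libraries. Slc4a1 was closest to Gm20441 and Gstt3 (0.978 each), Ank1 to Fam174b (0.967) and Samd7 (0.964), and Sptb to AU022252 (0.972) and Tmem269 (0.967). Add2 was closest to Etf1 (0.979) and Htr2a (0.975), Rhag to Diexf (0.959) and Nxpe2 (0.952), and Epb41 to Dus2 (0.912) and Mapre2 (0.886). The second gene was Apex2 for Epb42 (0.963) and Gm10260 for Kel (0.967). Among members, Epb41 had the lowest values, between -0.25 with Ank1 and 0.45 with Slc4a1, and the other 7 were between 0.64 and 0.99 with each other. Mean levels of Ank1 in ERY (20.6 ± 2.76, SD, n = 2), GMP (17.9 ± 4.74) and CFUE (17.6 ± 3.61) did not differ beyond their spread. For Epb41, CFUE (24.7 ± 6.36) and MON (23.4 ± 2.76) did not either.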

How the data were processed

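The deposited files are 24 peak lists. The authors aligned reads to mm10 with Bowtie 0.12.8, removed mitochondrial reads with SAMtools and bedtools, and ran HOMER separately for every library. The authors' peak score, deposited with no stated unit, served only to rank peaks within a list, and the other number given per peak was not used.

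The members and lists were chosen with earlier results of these data known. Peak numbers were fitted with limma 3.58.1 (R 4.3.3, trend and robust, 12 group means, two-sided) where the mean was 3 peaks or more. Peaks shared by both libraries of a type (overlap of 1 bp) were merged across types into elements. List length is the depth known here, so a missing peak does not show closed chromatin. Alternatives were other priors, flanks and filters, equal list lengths, and fits without single libraries or groups. Named are all members, up to 6 genes of each list with the largest difference past the threshold, the 2 genes closest in profile, and elements at starts or with most MEP, CFUE and ERY libraries and fewest others. Values of some list genes are not reported here. The elements chosen for printing of sequence were picked after their values were seen. The fit was tested on simulated data. Python 3.11.15 and pandas 2.3.3 were used otherwise.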

Additional observations from a re-analysis of the deposited data

How the results depend on the processing

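Across alternatives, the called differences of single members kept direction and threshold in 224 cases, missed the threshold in 8 (all named in the report except Add2 in MEP against GMP with a prior of 0.5 peak, 1.35, adjusted p = 0.0516) and reversed in 0. The 7 marrow types have library numbers in 2 runs. Correlations of the run differences over genes lay between -0.174 and 0.252, with 6 of 21 pairs of types over 0.1. Pairs among CMP, GMP, MEP, CFUE and CFUMK were all positive, between 0.046 and 0.252. Pairs of ERY or iMK with these types were all negative. What the libraries of a run share was not tested. A pair of fits on the 7 marrow types, chosen after seeing the data, tested the run as a replicate block. Genes called with the block were 2705 for MEP against GMP, 1353 for MEP against CMP, 2437 for CFUE against MEP, 448 for ERY against CFUE and 6169 for CFUE against CFUMK, and without it, on the same 14 libraries, 2624, 1304, 2331, 458 and 5994. Members called were 3, 1, 2, 0 and 3 in both fits. Genes called in CFUE and ERY against MON and NEU were 6843, and 11981 with peaks found in both replicates, an alternative that makes the libraries of a type near copies by construction. That alternative gave 9529 for MEP against GMP, 8972 for MEP against CMP, 12106 for CFUE against MEP, 4286 for ERY against CFUE, 13438 for CFUE against CFUMK and 7494 for G1E-ER4+E2 against G1E, where the counts had been 1774, 675, 1552, 296, 4872 and 1843, in the same order. Members called under it were 7 for MEP against GMP, 6 for MEP against CMP, 8 for CFUE against MEP, 8 for CFUE against CFUMK and 2 for G1E-ER4+E2 against G1E. With equal peak numbers genes called were 4144 for MEP against GMP, 2789 for MEP against CMP, 3920 for CFUE against MEP and 56 for ERY against CFUE, and members called were 7, 6 and 5 in the first 3 of these and 8 in CFUE against CFUMK. With only the groups of the contrast, genes called were 3528 for MEP against GMP, 1718 for MEP against CMP and 77 for ERY against CFUE, and members called were 1 for MEP against CMP, 3 for CFUE against CFUMK and 1 for G1E-ER4+E2 against G1E. MEP against CMP gave 396 genes with a prior of 0.5 peak, 1117 with 2 peaks and 1093 without NEU. CFUE against CFUMK gave 3 members with a prior of 2 peaks, 2 with a 50 kb flank and 2 without NEU. A 5 kb flank gave 1 member in CFUE against MEP and 1179 genes in G1E-ER4+E2 against G1E. Leaving out single libraries (the lone one assumed to vary like the others) gave between 503 and 948 genes for MEP against GMP, 160 and 329 for MEP against CMP, 630 and 1881 for CFUE against MEP, 181 and 325 for ERY against CFUE, 1525 and 5156 for CFUE against CFUMK, and 945 and 1248 for G1E-ER4+E2 against G1E, and between 1 and 2 members for CFUE against MEP and for CFUE against CFUMK. Slc4a1 fell under the filter on mean peaks with a 5 kb flank and was not tested there. Elements in the windows were 171, but 333 with a call in either replicate and 109 with equal peak numbers. In the central 150 bp of member elements GATAA was in 27.5%, CACCC in 42.1% (63.2% of whole elements), the composite in 7.6% (12.3%) and GGAAGT in 17.5% (28.1%). Differences that missed the threshold also changed sign. With a 5 kb flank Ank1 was 0.057 (MEP against GMP) and 0.24 (MEP against CMP), Epb41 0.18 (MEP against CMP), Sptb 0.016 (ERY against CFUE), and Add2 0.12 and Kel -0.014 (G1E-ER4+E2 against G1E). With a 50 kb flank Sptb was -0.15 (MEP against CMP) and 0.031 (ERY against CFUE), and Epb42 -0.062 (ERY against CFUE). With equal peak numbers Ank1 was 2.06 (MEP against GMP) and 0.90 (MEP against CMP), Epb41 0.054 (MEP against CMP) and 0.22 (ERY against CFUE), Rhag -0.31 (CFUE against MEP), Epb42 -0.12 (ERY against CFUE) and Kel -0.026 (G1E-ER4+E2 against G1E). With peaks in both replicates Ank1 was 0.060 (MEP against GMP), Epb41 0.034 (MEP against CMP), Epb42 -0.31 and Rhag -0.14 (ERY against CFUE), and Kel -0.25 (G1E-ER4+E2 against G1E). Epb41 was -0.060 without NEU (CFUE and ERY against MON and NEU), and between -0.11 and 0.15 without single libraries. Without single libraries Sptb lay between -0.029 and 0.74 (MEP against GMP), -0.24 and 0.33 (MEP against CMP) and -0.20 and 0.12 (ERY against CFUE). Epb41 lay between -0.33 and 0.15 (MEP against CMP), -0.53 and 0.0001 (ERY against CFUE) and -0.14 and 0.42 (G1E-ER4+E2 against G1E). Epb42 lay between -0.17 and 0.26 (ERY against CFUE) and -0.15 and 0.48 (G1E-ER4+E2 against G1E), Kel between -0.046 and 0.64 (ERY against CFUE) and -0.18 and 0.29 (G1E-ER4+E2 against G1E), and Ank1 between -0.072 and 0.36 (CFUE against CFUMK) and -0.68 and 0.15 (G1E-ER4+E2 against G1E). The cause was not tested. The element classes without NEU calls were chosen after seeing the data. Groups of 2 libraries and lists of unequal length limit every value here.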
